A study of Mus musculus with 23 samples.

Results

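Skeletal muscle contracts when calcium leaves the sarcoplasmic reticulum and relaxes when it is pumped back. The RNA of 10 genes that carry out this cycle was followed in the quadriceps of mice with and without pancreatic tumors. The genes were chosen by symbol for the roles of their proteins, with earlier results of these data known. All 10 were found among the 12831 genes of the quadriceps count table. Ryr1, Trdn, Jph1 and Jph2 belong to calcium release, Casq1 and Casq2 to storage, Atp2a1, Atp2a2 and Sln to uptake, and Pvalb to buffering in the cytosol. The question was whether these genes differed between tumor-bearing and tumor-free muscle, and whether the difference depended on Il6 in the tumor cells.

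The hosts in every group were male C57BL/6J mice whose own Il6 gene was not edited. They were 8 weeks old at surgery per the study's methods, and older when muscle was taken. In the no tumor group (n = 3) the mice had sham surgery. In the KPC group (n = 4) they received an orthotopic pancreatic tumor from the KPC cell line, derived from a male mouse with mutant Trp53 and Pdx1-Cre, as a clone transfected with a CRISPR/Cas9 plasmid holding a null guide. In the KPC IL6KO group (n = 4) the tumor came from a clone of the same line in which Il6 had been disrupted. Each tumor group thus rests on 1 clone, and the mice of all groups were euthanized when the KPC group reached its humane endpoint. The paper reports larger tumors in KPC than in KPC IL6KO mice, and no correlation of tumor mass with quadriceps mass. Tumor size and Il6 in the tumor cells cannot be told apart in the RNA differences given here. Each library is 1 mouse, all quadriceps libraries were isolated and sequenced in a single round, and the samples named Sham in the records are called no tumor here. The total count was 19259763 to 53188659 per library in no tumor, 54968680 to 74907810 in KPC and 50003124 to 62832136 in KPC IL6KO, and the shallowest was no tumor replicate 3. No member had fewer than 25 counts in any library, and 3 counts, taken as the limit of detection for counting error alone, were worth 0.0462 to 0.154 CPM (counts scaled to a common library size, TMM-adjusted). The myofiber marker Acta1, skeletal alpha-actin, and the fast-fiber marker Myh4 were abundant in every library, whereas no listed marker of lymphocytes or of red blood cells was among the genes of the table.

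In a muscle fiber the surface membrane dips inward as T-tubules, each flanked by sacs of sarcoplasmic reticulum in a triad. The voltage sensor of the T-tubule opens the release channel RYR1, junctophilins hold the membranes together, and triadin ties the channel to calsequestrin, the store's calcium-binding protein. SERCA pumps return the calcium at the cost of ATP, sarcolipin slows and uncouples the pump, and parvalbumin binds calcium in the cytosol of fast fibers so that they relax quickly. In mouse limb muscle most fibers are fast and use SERCA1 (Atp2a1) and calsequestrin 1, while SERCA2 (Atp2a2) and calsequestrin 2 are typical of slow fibers and heart.

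Promoter sequences from RefSeq (GRCm38.p6) were at hand for 6 of the 10 genes, Ryr1, Atp2a1, Casq1, Casq2, Pvalb and Jph2. The 250 bases before the start are shown for the 4 genes whose RNA fell in KPC muscle and for Atp2a1, the fast-fiber pump, as a gene that was not called. They are given 5′ to 3′ on the strand of the gene, with capitals for letters that matched an E-box (CANNTG, the core bound by MyoD-family factors) or a MEF2-like element (CTAAAAATA) on either strand. Starts are those of RefSeq and need not match the gene ends given later from GENCODE vM21. The windows are chr1:172219896-172220145 (minus strand) for Casq1, chr2:163397994-163398243 (minus) for Jph2, chr15:78206401-78206650 (minus) for Pvalb, chr3:102086165-102086414 (plus) for Casq2 and chr7:126463074-126463323 (minus) for Atp2a1.
Casq1: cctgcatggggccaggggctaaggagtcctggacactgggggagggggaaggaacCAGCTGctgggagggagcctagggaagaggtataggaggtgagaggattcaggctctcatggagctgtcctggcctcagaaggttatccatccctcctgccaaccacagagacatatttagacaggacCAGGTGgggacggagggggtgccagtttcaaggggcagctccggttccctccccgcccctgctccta
Jph2: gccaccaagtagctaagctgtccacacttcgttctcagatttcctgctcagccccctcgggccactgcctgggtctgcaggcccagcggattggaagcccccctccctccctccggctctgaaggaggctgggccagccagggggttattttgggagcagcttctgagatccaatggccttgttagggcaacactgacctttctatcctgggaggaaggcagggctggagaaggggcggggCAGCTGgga
Pvalb: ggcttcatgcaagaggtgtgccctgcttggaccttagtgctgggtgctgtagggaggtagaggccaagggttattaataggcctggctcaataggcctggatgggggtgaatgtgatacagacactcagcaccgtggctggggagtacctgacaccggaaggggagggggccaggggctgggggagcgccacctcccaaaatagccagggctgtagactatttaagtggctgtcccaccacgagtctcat
Casq2: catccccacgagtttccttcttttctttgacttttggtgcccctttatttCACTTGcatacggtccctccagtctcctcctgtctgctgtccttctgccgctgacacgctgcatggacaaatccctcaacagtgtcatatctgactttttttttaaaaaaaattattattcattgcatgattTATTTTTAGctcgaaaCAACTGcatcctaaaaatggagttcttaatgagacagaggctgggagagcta
Atp2a1: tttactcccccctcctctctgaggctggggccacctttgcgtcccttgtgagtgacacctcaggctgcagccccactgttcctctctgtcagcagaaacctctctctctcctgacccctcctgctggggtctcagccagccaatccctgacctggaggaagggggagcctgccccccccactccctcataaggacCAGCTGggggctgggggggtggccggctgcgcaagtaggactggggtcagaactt

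Counted back from the start, Casq1 held E-boxes at -195 (CAGCTG) and -67 (CAGGTG), Jph2 1 at -9 (CAGCTG), Casq2 2 at -200 (CACTTG) and -52 (CAACTG), and Atp2a1 1 at -55 (CAGCTG). An E-box was present in 66.2% of all 32851 windows of this length, so its presence does not set these genes apart. The Casq2 window also held a MEF2-like element at -68, read as TATTTTTAG on the strand of the gene, which 0.469% of all windows held. None of the 6 motifs searched was found in the windows of Pvalb or Ryr1. The other motifs, a STAT site (TTCNNNGAA, in 7.02% of all windows), a glucocorticoid receptor element (AGAACA, 16.1%), an NFAT site (TGGAAA, 18.6%) and a TATA-like element (TATAAA, 12.4%), were in none of the 6 windows. These matches describe letters only.

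Between KPC and no tumor muscle, Casq1, Jph2, Pvalb and Casq2 fell and Sln rose, while the channel gene Ryr1, the main pump gene Atp2a1, Atp2a2, Trdn and Jph1 were not called. A gene was called at a false discovery rate (FDR, Benjamini-Hochberg over all 12831 genes, edgeR quasi-likelihood test) of at most 0.05 with a fold change (FC) of at least 1.5. The 4 of 10 genes that fell and the 1 that rose stand beside 29% and 26.7% of all genes, so the number of calls is not itself a result about these genes. The CPM ranges of the groups did not overlap for 6 of the 10, against 65.3% of all genes. The median log2 FC of the 10 was -0.26, against -0.03 for all genes. Because the genes were chosen with earlier results of these data known, this median and those below only describe them.

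The same 5 genes were called, in the same directions, when KPC was compared with KPC IL6KO muscle. Of all genes, 27.3% were called down and 26.4% up in this comparison. Ranges did not overlap for 4 of the 10 genes, against 62% of all, and the median log2 FC was -0.34, against -0.01 for all genes. Both comparisons use the same KPC libraries, so they are not independent of each other. Between KPC IL6KO and no tumor muscle, none of the 10 genes was called by edgeR's quasi-likelihood test, and 0 had an unadjusted p under 0.05. The likelihood ratio test and DESeq2 called 0 of the 10 as well. The quasi-likelihood test called 0% of all genes up and 0% down here, although 887 of 12831 had an unadjusted p under 0.05. The paper reports a small number of genes up and down here, with edgeR at the same FDR and FC limits. Over all genes, the likelihood ratio test and DESeq2 also called some in each direction, with counts given in the last section. Ranges did not overlap for 0 of the 10 genes in this comparison, against 15.5% of all genes, and the median log2 FC of the 10 was 0.12, against 0.00 for all genes.

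**Figure D1:**
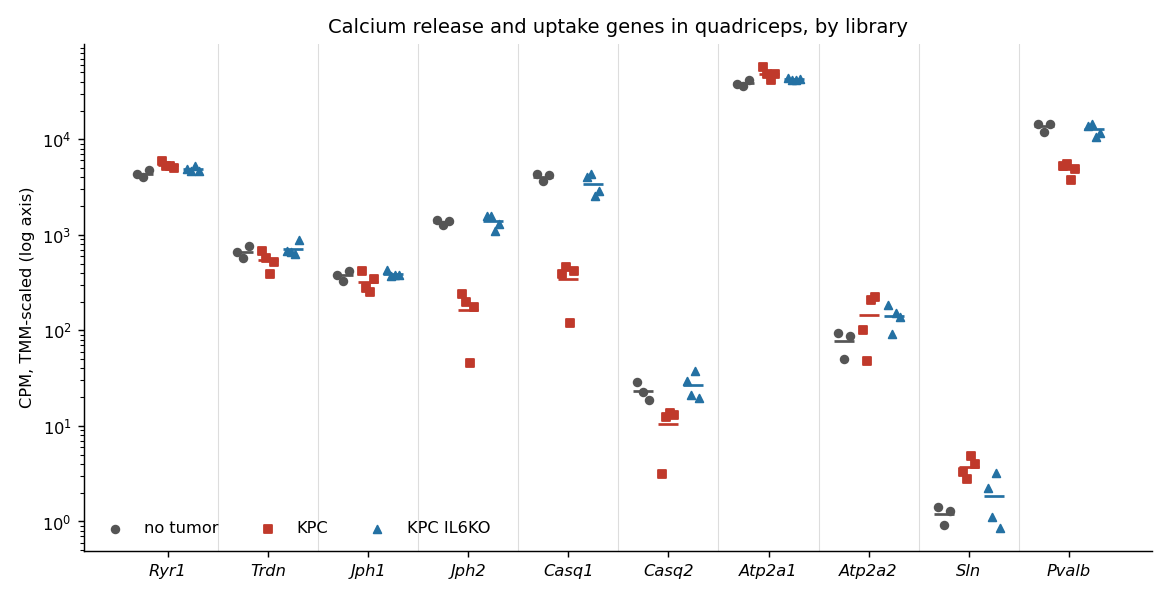
Level of each gene in CPM (log axis) in every quadriceps library of the no tumor (circles, n = 3), KPC (squares, n = 4) and KPC IL6KO (triangles, n = 4) groups, with a line at the group mean. All KPC points of Casq1, Jph2, Pvalb and Casq2 lie below those of both other groups, and Atp2a1 lies near the top of the range in every library.

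**Figure D2:**
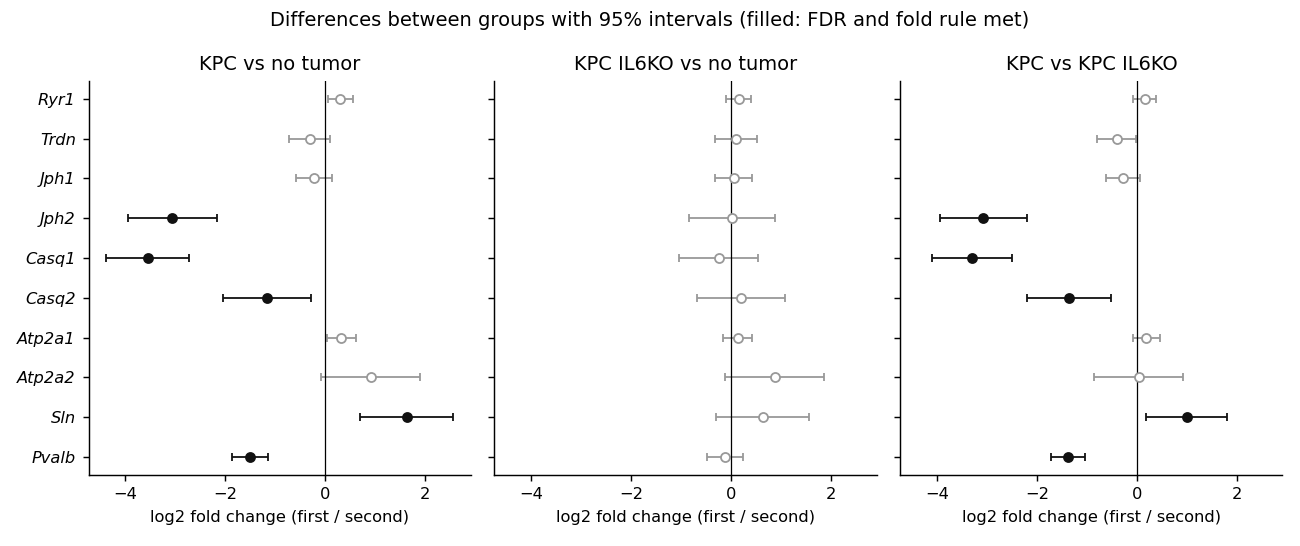
Estimated log2 FC of each gene with its 95% interval from edgeR for the 3 comparisons, where filled points met both the FDR and the FC rule. Casq1 (-3.55 and -3.30) and Jph2 (-3.05 and -3.07) lie lowest in the outer panels, and every interval of the middle panel, KPC IL6KO against no tumor, includes 0.

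The channel gene Ryr1 (chr7, 29003344 to 29125179, minus strand, mm10) was high in all groups. Its level was 4313, 4012 and 4737 CPM in the no tumor mice, 5978, 5306, 5277 and 5014 CPM in KPC and 4869.5, 4658, 5263 and 4602 CPM in KPC IL6KO. Every KPC library was above every no tumor library, and the KPC IL6KO libraries overlapped both groups. The log2 FC of KPC against no tumor was 0.31 ± 0.11 (SE; FDR = 0.0293, edgeR), which met the FDR but not the FC rule. This small difference depended on the scaling, since it was 0.11 (FDR = 0.336) when libraries were scaled by total counts without TMM. The 95% interval of KPC IL6KO against no tumor was -0.09 to 0.40.

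Trdn, which encodes triadin, ranged from 573 to 772 CPM in no tumor, from 389 to 684 CPM in KPC and from 629.8 to 883 CPM in KPC IL6KO, with overlap between all groups. It was not called in any comparison, with a log2 FC of -0.31 (95% interval -0.72 to 0.11) for KPC against no tumor and -0.41 (-0.79 to -0.02, edgeR FDR = 0.0572) for KPC against KPC IL6KO.

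The junctophilin genes differed from each other. Jph2 (chr2, 163336242 to 163397993, minus strand) stood at 1428, 1268 and 1406 CPM in no tumor, at 241, 198, 45.6 and 175 CPM in KPC and at 1577, 1569, 1102 and 1290.4 CPM in KPC IL6KO. All KPC libraries were below all others, and the lowest, KPC replicate 3, was well under the next. Jph2 was 8.29-fold lower in KPC than in no tumor (log2 FC -3.05 ± 0.41, FDR = 5.69e-05, edgeR). It was 8.39-fold lower than in KPC IL6KO (log2 FC -3.07 ± 0.39, FDR = 4.05e-05). Leaving out each library in turn kept the first value between -3.29 and -2.74. The KPC IL6KO and no tumor groups overlapped, with a 95% interval of -0.84 to 0.88 for their difference.

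Jph1, the skeletal-muscle junctophilin gene, ranged between 325 and 419 CPM in the no tumor mice, between 252 and 421 CPM in KPC and between 371 and 432 CPM in KPC IL6KO. The groups overlapped in each comparison. Its log2 FC was -0.22 for KPC against no tumor (95% interval -0.58 to 0.15) and -0.27 for KPC against KPC IL6KO (-0.61 to 0.07).

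Casq1 (chr1, 172209894 to 172219868, minus strand), the gene of the main store buffer of fast fibers, showed the largest difference of the 10 genes in both comparisons with KPC. It was measured at 4312, 3639 and 4228 CPM in no tumor, 388, 465, 119 and 414 CPM in KPC and 4026, 4288, 2535 and 2854 CPM in KPC IL6KO. Every KPC library was far below every library of the other groups, and KPC replicate 3 was again the lowest. The group levels were 4059.6 ± 367 CPM (SD, n = 3), 347 ± 155 CPM (n = 4) and 3426 ± 861 CPM (n = 4). Casq1 was 11.7-fold lower in KPC than in no tumor (log2 FC -3.55 ± 0.38, FDR = 1.27e-05, edgeR) and 9.88-fold lower than in KPC IL6KO (log2 FC -3.30 ± 0.37, FDR = 1.40e-05). Without KPC replicate 3 the first log2 FC was -3.26. Of the KPC IL6KO libraries 2 lay within the no tumor range and 2 below it, and the difference had a 95% interval of -1.03 to 0.54. Since the counting's use of strand is not given in the sources used here, reads of the antisense gene Gm17224 that overlaps Casq1 could not be told apart from its own, and the same holds for genes on the opposite strand at Ryr1, Atp2a1, Atp2a2, Jph1 and Trdn.

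Casq2, the slow-fiber and cardiac calsequestrin gene, was far lower in level. Its values were 28.8, 22.4 and 18.8 CPM in no tumor, 3.16, 12.3, 13.8 and 12.9 CPM in KPC and 29.4, 20.9, 38.0 and 19.6 CPM in KPC IL6KO. All KPC libraries were below the others, with KPC replicate 1 apart at 3.16 CPM from 205 counts. Casq2 was 2.22-fold lower in KPC than in no tumor (log2 FC -1.15 ± 0.40, FDR = 0.0239, edgeR) and 2.56-fold lower than in KPC IL6KO (FDR = 0.00758). The first of these calls was lost without no tumor replicate 1 (log2 FC -0.95, FDR = 0.0965). Without KPC replicate 1 it was -0.85 (FDR = 0.0104).

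On the uptake side, Atp2a1 (chr7, 126445858 to 126463108, minus strand), which encodes the fast-fiber pump SERCA1, was the most counted of the 10 genes and took 3.85% to 4.94% of all counts of a library. Its level reached 38251, 35767 and 42144 CPM in no tumor, 57041, 47672, 41894 and 48153 CPM in KPC and 43578, 41820.0, 41795 and 43183 CPM in KPC IL6KO. The KPC values tended to the upper end, but the lowest of them was below the highest no tumor value. The log2 FC was 0.33 ± 0.13 for KPC against no tumor (FDR = 0.0423, edgeR), under the FC rule, and it was 0.13 (FDR = 0.347) without TMM. Together the 10 genes took 6.45% to 6.96% of the counts in no tumor, 4.77% to 6.08% in KPC and 6.33% to 7.03% in KPC IL6KO libraries.

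Atp2a2, the gene of the slow-fiber and cardiac pump SERCA2, varied widely between mice of a group. Its level was 93.7, 49.99 and 86.9 CPM in no tumor, 101, 48.1, 209.6 and 221 CPM in KPC and 183, 90.7, 153 and 139.6 CPM in KPC IL6KO, so that the KPC group held both the lowest and the highest libraries. The log2 FC against no tumor was 0.91 ± 0.45 in KPC (FDR = 0.0922, edgeR) and 0.88 ± 0.45 in KPC IL6KO (FDR = 0.801), and neither was called. Without KPC replicate 2 the first was 1.20 (FDR = 0.00925), and DESeq2 gave 0.96 (adjusted p = 0.0358), both of which would be calls. KPC and KPC IL6KO differed by 0.03 (95% interval -0.86 to 0.93).

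Sln, which encodes sarcolipin, had the lowest level of the 10 genes. Its level was 1.40, 0.921 and 1.28 CPM in no tumor, 3.27, 2.77, 4.84 and 3.97 CPM in KPC and 2.26, 1.10, 3.19 and 0.857 CPM in KPC IL6KO, from 25 to 296 counts per library. All KPC libraries were above all no tumor libraries, and 1 KPC IL6KO library lay within the KPC range. Sln was 3.10-fold higher in KPC than in no tumor (log2 FC 1.63 ± 0.43, FDR = 0.00518, edgeR), and this call held without each library in turn (FDR up to 0.0281). The difference from KPC IL6KO was smaller, at 2.00-fold (log2 FC 1.00 ± 0.37, FDR = 0.0305). That call was lost without KPC replicate 3 (FDR = 0.0808), KPC replicate 4 (0.0526), KPC IL6KO replicate 2 (0.0842) or KPC IL6KO replicate 4 (0.0706). It was also lost with only these groups in the fit (0.0551) and without TMM (0.0520).

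Pvalb (chr15, 78191114 to 78206400, minus strand), the parvalbumin gene of fast fibers, was expressed at 14605, 11928 and 14595 CPM in no tumor, 5254, 5569.6, 3740.2 and 4899.9 CPM in KPC and 13876, 14539.8, 10658 and 11699 CPM in KPC IL6KO. The highest KPC library was under every library of the other groups, which overlapped each other. Pvalb was 2.82-fold lower in KPC than in no tumor (log2 FC -1.49 ± 0.17, FDR = 1.53e-05, edgeR) and 2.61-fold lower than in KPC IL6KO (log2 FC -1.38 ± 0.16, FDR = 1.62e-05). KPC IL6KO and no tumor differed by a log2 FC of -0.11 (95% interval -0.47 to 0.25).

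To compare the genes with each other, levels were divided by the summed length of their annotated exons, not of the transcripts used in muscle. The sample labels name a capture kit, whose probes could set levels per gene, so the order between genes is uncertain. In CPM per kilobase, no tumor muscle was led by Pvalb (13169 ± 1482, SD, n = 3) and Atp2a1 (11136 ± 924), whose ranges overlapped, followed by Casq1 (2198 ± 199). Jph2 (321 ± 20.3) and Ryr1 (282 ± 23.6) came next with overlapping ranges, then Trdn (84.9 ± 12.8) and Jph1 (78.2 ± 9.92), which overlapped too. Atp2a2 (14.6 ± 4.46) and Casq2 (9.10 ± 1.97) overlapped below them, and Sln was last (0.912 ± 0.190). In KPC IL6KO muscle Atp2a1 (12250.3 ± 265, n = 4) and Pvalb (12193 ± 1748) overlapped at the top, and the order below them was the same as in no tumor. In KPC muscle Atp2a1 (14003 ± 1798) stood clear of Pvalb (4674 ± 767), Ryr1 (349 ± 26.6) was above Casq1 (188 ± 83.9), and Jph2 (38.8 ± 19.8) had moved under Trdn (68.7 ± 15.6) and Jph1 (67.4 ± 15.6), with ranges that overlapped from Casq1 down to Atp2a2 (27.4 ± 16.0).

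Ratios of paired genes within a library do not depend on how libraries are scaled. The log2 ratio of Jph1 to Jph2 counts was -1.89, -1.96 and -1.75 in the no tumor libraries, 0.80, 0.50, 2.47 and 0.97 in KPC and -1.87, -2.08, -1.55 and -1.75 in KPC IL6KO, without overlap between KPC and either other group. The mean difference between KPC and no tumor was 3.05 (2-sided exact permutation p = 0.0571, the smallest that 4 against 3 mice allow), and between KPC and KPC IL6KO it was 3.00 (exact p = 0.0286, the smallest for 4 against 4). After Benjamini-Hochberg adjustment over the 15 ratio tests the smallest p was 0.107, so no ratio could pass 0.05 in this design.

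The log2 ratio of Casq1 to Casq2 was 7.23, 7.34 and 7.81 in no tumor, 6.94, 5.24, 3.11 and 5.01 in KPC and 7.10, 7.68, 6.06 and 7.19 in KPC IL6KO. It was lower in all 4 KPC mice than in any no tumor mouse, by 5.23-fold on average (exact permutation p = 0.0571). KPC replicate 1 came closest to the no tumor group. Its Casq2 level was the lowest of all libraries, while its Casq1 level lay within the range of the other KPC mice. The ratio of Sln to the summed pump genes Atp2a1 and Atp2a2 was higher in all 4 KPC libraries than in any no tumor library, by 2.43-fold on average (exact permutation p = 0.0571), while KPC IL6KO overlapped both.

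The log2 ratio of the channel gene Ryr1 to Cacna1s, the voltage-sensor gene, was 1.77, 1.75 and 1.87 in no tumor, 3.25, 2.81, 3.27 and 2.68 in KPC and 1.98, 1.95, 2.15 and 2.06 in KPC IL6KO. It separated all 3 groups without overlap, with a mean difference from no tumor of 1.21 in KPC and 0.24 in KPC IL6KO (exact permutation p = 0.0571 for each). The ratio of Atp2a1 to Atp2a2 overlapped in every comparison, with a log2 difference of -0.40 for KPC against no tumor (exact permutation p = 0.629).

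**Figure D3:**
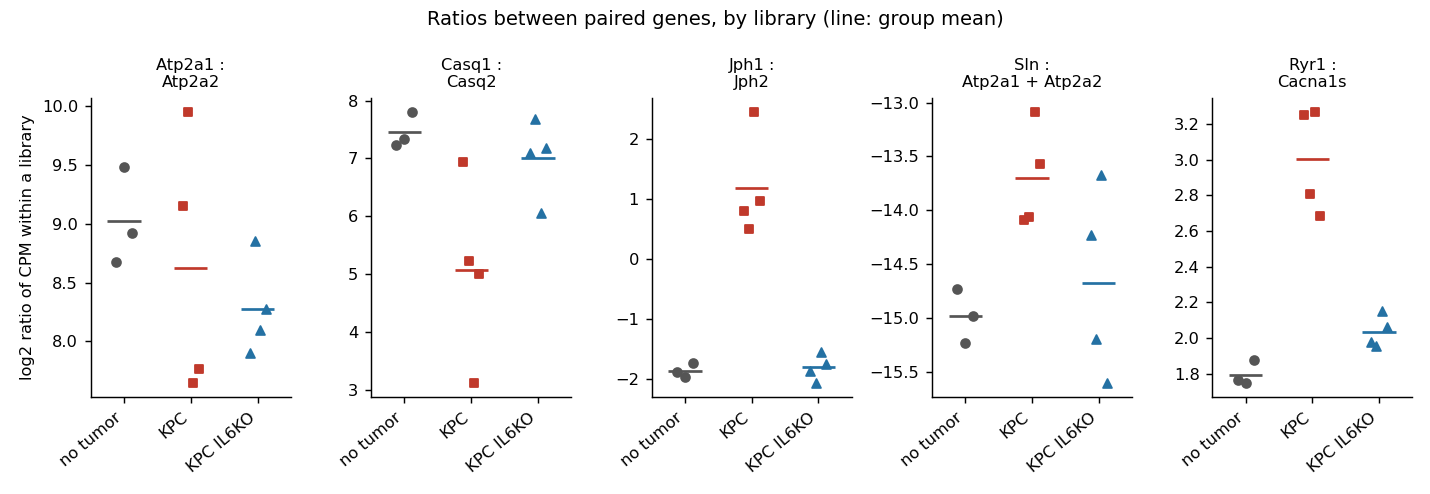
Log2 ratio of the counts of paired genes in every library, by group, with a line at the group mean and a separate vertical scale in each panel. Jph1 to Jph2 and Ryr1 to Cacna1s were higher, and Casq1 to Casq2 lower, in each KPC library than in each no tumor library.

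The other genes of the pathway were taken from a list by role, of which 64 of 71 were in the table. This list too was chosen with earlier results of these data known, so its medians only describe it. In KPC against no tumor 28 of the 64 fell and 5 rose, beside 29% and 26.7% of all genes, with a median log2 FC of -0.44, against -0.03 for all genes. Ranges did not overlap for 40 of the 64, near the 65.3% of all genes. In KPC against KPC IL6KO 28 fell and 5 rose, beside 27.3% and 26.4% of all genes, with a median of -0.45, against -0.01 for all genes. Between KPC IL6KO and no tumor 0 were called by edgeR's quasi-likelihood test, and 2, Calu and Atp2b4, had an unadjusted p under 0.05. The likelihood ratio test and DESeq2 called 0 as well. The split depended on the scaling. Without TMM the median of all genes was shifted by -0.20 in KPC against no tumor, and 32 pathway genes fell and 1 rose, beside 4499 and 2622 of all genes (36.8% of calls up, against 48.0% with TMM).

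Of the 13 voltage-sensor and triad genes, 5 fell and 2 rose in KPC against no tumor, with a median log2 FC of -0.32. The counts of this and the following groups of 5 to 13 genes stand beside 29% of all genes that fell and 26.7% that rose, with a median of -0.03, and nothing particular to a group is read from them. Sypl2, which encodes the triad protein mitsugumin 29, fell from a mean of 599 to 41.7 CPM, 14.4-fold (FDR = 5.57e-06, edgeR), and Cacna1s, the pore and voltage sensor of the T-tubule channel, from 1252 to 679 CPM (1.84-fold, FDR = 1.00e-04). Cacng1, the gamma subunit of the same channel, rose from 225 to 725 CPM (3.23-fold, FDR = 0.00218), against the direction of Cacna1s.

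Of the 11 partners of the release channel and other release channels, 6 fell and 0 rose (median log2 FC -0.81), beside the same 29% and 26.7% of all genes. Calm2, 1 of the calmodulin genes, fell 4.52-fold (FDR = 2.13e-06, edgeR). Hrc, the histidine-rich calcium-binding protein of the store, fell 1.82-fold (FDR = 2.08e-04), and Asph, whose locus also encodes junctin, fell 1.75-fold (FDR = 0.0126). Of the 6 pump regulators and further store buffers, 4 fell and 0 rose (median -0.84), among them Srl (sarcalumenin) by a log2 FC of -0.81 (FDR = 9.55e-04) and Pln (phospholamban) by -1.09 (FDR = 0.0369). Pln was at or under 0.935 CPM in every library, and its call was lost without no tumor replicate 1 or 3 or KPC replicate 1 or 3 (FDR 0.0687 to 0.201).

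Of the 6 genes of store-operated entry, which refills the store from outside the fiber, 4 fell and 0 rose (median log2 FC -0.73), beside 29% and 26.7% of all genes. The store sensors Stim1 and Stim2 fell by 1.79-fold (FDR = 0.00156, edgeR) and 1.56-fold (FDR = 0.00590), and the pore gene Orai1 by 2.31-fold (FDR = 6.06e-05). The call of Stim2 was lost without no tumor replicate 3 or KPC replicate 3, when its FC was under 1.5. Of the 5 genes of surface extrusion 4 fell and 0 rose (median -1.06), led by the exchanger gene Slc8a3, from 81.4 to 8.63 CPM (9.44-fold, FDR = 2.25e-04). Atp2b1, a surface calcium pump, fell 1.93-fold (FDR = 1.09e-04).

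Of the 12 mitochondrial uptake genes 1 rose and 2 fell (median log2 FC -0.08), beside 26.7% and 29% of all genes. The uniporter pore gene Mcu fell 2.48-fold (FDR = 5.32e-06, edgeR), its regulator Mcur1 rose 1.59-fold (FDR = 0.00125), and the outer-membrane channel gene Vdac1 had a log2 FC of -0.24 (FDR = 0.0674). Of the 11 calcineurin and CaM kinase genes, 3 fell and 2 rose (median -0.02), near the shares of all genes. Camk2a, a calcium-activated kinase, fell 4.73-fold (FDR = 1.02e-04), and Nfatc1, a transcription factor activated by calcineurin, rose 1.70-fold (FDR = 4.83e-04). The calls of Mcur1 and Nfatc1 were lost to the FC rule without TMM, where their log2 FC was 0.45 and 0.55. Mcur1 also fell short of it without no tumor replicate 3 (0.58) or KPC replicate 3 (0.56).

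**Figure D4:**
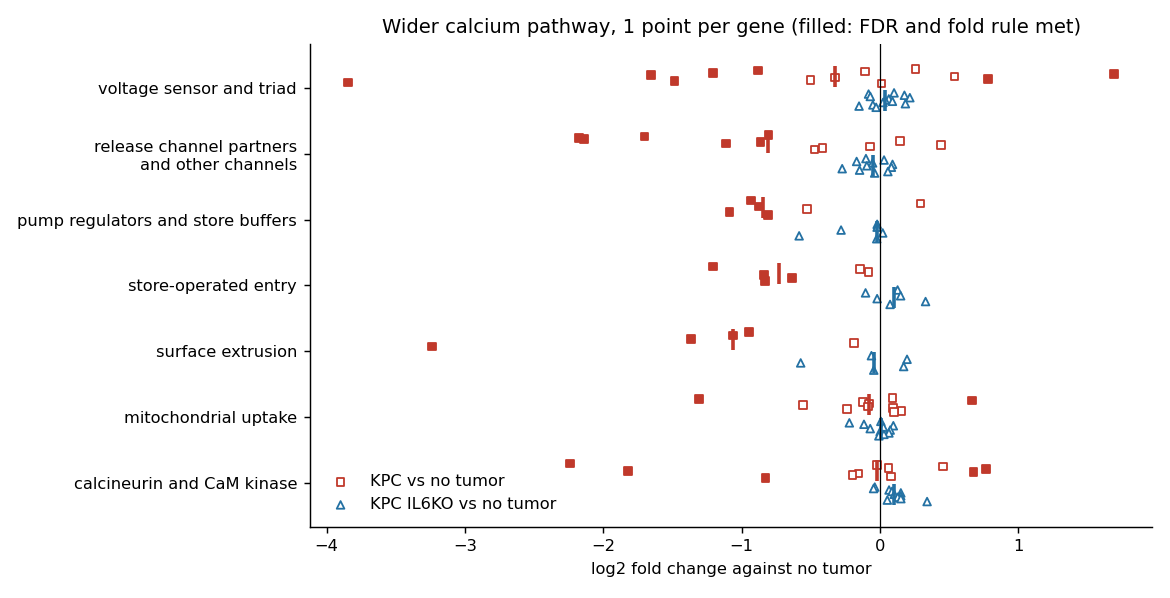
Log2 FC against no tumor of the other calcium pathway genes by role, for KPC (squares) and KPC IL6KO (triangles). Of the 64 genes, Mcub (matched as Ccdc109b) is not drawn. Filled points met the FDR and FC rule, and short bars are medians of the genes drawn in each group. Most filled KPC points lie below 0 and 5 lie above it, and none of the KPC IL6KO points is filled.

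Some of the 10 genes are typical of 1 fiber type, so fiber markers are given beside them. The summed level of 6 slow-fiber markers (Myh7, Tnnc1, Tnni1, Tnnt1, Myl2, Myl3) was 216, 31.8 and 241 CPM in no tumor, 84.5, 22.2, 607 and 693 CPM in KPC and 628, 216, 598 and 507 CPM in KPC IL6KO. The groups overlapped and 0 of the 6 markers were called by edgeR (Myh7, the most abundant, log2 FC 1.80, FDR = 0.212, in KPC against no tumor), with a median log2 FC of 0.86 in KPC and 1.48 in KPC IL6KO against no tumor. Atp2a2 was low where this sum was low and high where it was high, though not in strict order, since KPC replicate 1 had more Atp2a2 than 3 libraries with higher sums. KPC replicate 2 and no tumor replicate 2 had the lowest marker sums and the lowest Atp2a2 levels (48.1 and 49.99 CPM), and KPC replicates 3 and 4 had high sums and the highest Atp2a2 levels (209.6 and 221 CPM). The highest sum in a no tumor library was 241 CPM, so KPC replicates 3 and 4 had no no tumor library of like sum beside them. What part fiber makeup had in the values of Atp2a2, Casq2 and Sln was not tested.

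**Figure D5:**
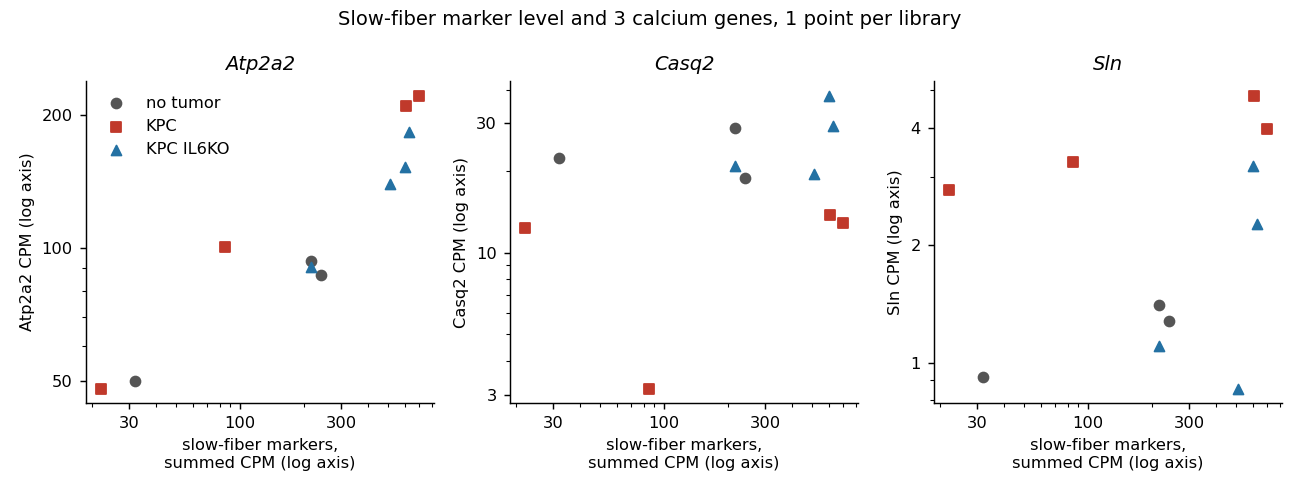
Level of Atp2a2, Casq2 and Sln in CPM against the summed CPM of 6 slow-fiber markers, with 1 point per library and log axes. Atp2a2 is lowest in the libraries with the lowest sums (22.2 and 31.8 CPM), and all KPC points (squares) of Casq2 lie below, and those of Sln above, all no tumor points, which have sums of 31.8 to 241 CPM.

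The summed level of the 8 fast-fiber markers was 117493 to 145422 CPM in no tumor, 101667 to 111260.2 CPM in KPC and 124977 to 139289 CPM in KPC IL6KO, lower in KPC than in the others. Of the 8, 2 were called in KPC against no tumor, beside 29% of all genes that fell and 26.7% that rose. They were Tnnc2 (log2 FC -0.80, FDR = 6.35e-05, edgeR) and Mylpf (-1.27, FDR = 1.05e-05), both lower. Myh4, the most abundant, had a log2 FC of -0.52 (FDR = 0.00691), under the FC rule, and Myh2 had -1.52 (FDR = 0.0573). The other 4 had values above 0 and were not called, at 0.27 for Myh1, 0.20 for Tnni2, 0.18 for Tnnt3 and 0.18 for Actn3. The markers beyond Myh4 were named after their values were seen, and the part of fast-fiber makeup in the values of Pvalb, Casq1 and the other members was not tested. Of the 5 general myofiber markers Acta1 fell and Des rose, beside the same shares of all genes. The sum of the 5 was 72083 to 85726 CPM in no tumor, 54580.3 to 68319 CPM in KPC and 86231 to 93776 CPM in KPC IL6KO.

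Markers of some other cells differed between KPC and no tumor as well, while the sums of others overlapped. The calls stand beside 29% of all genes that fell and 26.7% that rose. Nothing particular to a cell type is read from the number of calls. In KPC IL6KO, sums lay below the no tumor range for fibroblasts and adipocytes and above it for neutrophils, though no marker was called there. All 4 fibroblast markers fell, with a median log2 FC of -3.15. Dcn, the most abundant, changed least (-0.70, FDR = 0.00270, edgeR). The fibroblast sums were 900.1 to 989.7 CPM in no tumor, 158 to 261 CPM in KPC and 502 to 764 CPM in KPC IL6KO. All 3 smooth muscle markers fell as well, with a median log2 FC of -1.79, and Myh11, the most abundant, changed least (-0.82). The smooth muscle sums were 46.9 to 74.5 CPM in no tumor, 17.0 to 34.9 CPM in KPC and 43.2 to 50.7 CPM in KPC IL6KO. The 3 of 5 neutrophil markers in the table rose (S100a8, log2 FC 6.27), with sums of 0.0512 to 0.294 CPM in no tumor, 3.93 to 20.6 CPM in KPC and 1.14 to 2.54 CPM in KPC IL6KO. In no tumor S100a8 was at 0.0346 to 0.118 CPM, near or under the limit of detection. S100a9 and Retnlg had 0 counts in no tumor replicate 3, so the size of these FC is uncertain. Of 5 macrophage markers 1 rose and 1 fell, with log2 FC from -1.54 to 3.22 over the list. Lyz2, the most abundant, was at -0.40 (FDR = 0.287, edgeR). The macrophage sums of 68.9 to 100.4 CPM in no tumor, 33.1 to 126 CPM in KPC and 70.8 to 113 CPM in KPC IL6KO overlapped. Of the 4 endothelial markers 2 fell, of the 4 adipocyte markers 1 and of the 2 satellite-cell markers 1 (Pax7, log2 FC -2.14). Cdh5 and Cidec, the most abundant endothelial and adipocyte markers, had log2 FC of -0.24 and -0.50 and were not called. The medians of the endothelial and adipocyte lists were -0.51 and -1.95. Of the 2 tumor epithelium markers in the table Krt18 rose. The endothelial marker sum was 165 to 229.6 CPM in no tumor, 144 to 239 CPM in KPC and 186 to 251 CPM in KPC IL6KO. Neither adipocytes (111 to 619, 3.01 to 337 and 16.1 to 101 CPM in the same order) nor tumor epithelium (0.359 to 2.46, 0.702 to 13.5 and 0.326 to 0.754 CPM) separated KPC from no tumor by their sums, whereas satellite-cell sums did (3.08 to 3.89, 1.15 to 1.51 and 3.62 to 4.47 CPM). In bulk tissue fewer cells of a type and less RNA per cell cannot be told apart, and the part of these cells in the values of the calcium genes was not tested.

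Finally, the genes whose pattern over the 11 libraries was most like that of each member were found by the root mean square (RMS) difference of log2 CPM, each gene centred on its own mean, among 10510 other genes. All libraries enter this measure, including those that share a group. Casq1 was closest to Wfdc1 (RMS difference 0.17), Sypl2 (0.22) and Smco1 (0.24), where the median gene was 1.84 away. Jph2 was closest to Lingo3 (0.23), Wfdc1 (0.27) and Nkain1 (0.31), against a median of 1.74, and Wfdc1 is thus near both. Pvalb was closest to Ccng1 (0.11), Kcna7 (0.11) and Hspb2 (0.12), against a median of 0.80. Atp2a2 was closest to Tpm3 (0.24), with the next gene, Ptar1, at 0.53 and the median at 0.81. Casq2 was closest to Efr3b (0.22) and Nav2 (0.24), and Sln to Cblb (0.34), Eci2 (0.36) and Mlycd (0.37). Trdn was closest to Naa50 (0.07) and Jph1 to Myom2 (0.08). The genes that varied least, Ryr1 and Atp2a1, were closest to Smarcc1 (0.05) and Mkrn2 (0.05).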

How the data were processed

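RNA-seq of quadriceps from 3 no tumor, 4 KPC and 4 KPC IL6KO mice was used, grouped by sample title. The authors aligned reads to mm10 with STAR, counted uniquely mapped reads with featureCounts 1.5.1 and deposited raw counts, not normalized, for 12831 genes, with no rule stated for which genes are listed. The library kit is TruSeq Nano DNA in the study's methods but TruSeq RNA Access per the labels, a capture kit whose probes could set levels per gene. A no tumor sample removed by the authors as an outlier was not analysed here.

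Counts were scaled by TMM and all 11 libraries fitted together in edgeR 4.0.16 (R 4.3.3, quasi-likelihood test, Benjamini-Hochberg FDR over all genes, no replicate term). filterByExpr removed no gene, so every member was tested. CPM per kilobase used the summed exon length of GENCODE vM21. Ratios (pseudocount 0.5 counts) were compared by 2-sided exact permutation tests in scipy 1.17.1, and p-values measure the spread between single mice. The fitting step was tested on simulated counts in which far fewer genes changed than in KPC muscle. That test does not cover a change as broad as the one in KPC. The biological coefficient of variation was 22.7%, and replicate pairs differed beyond sampling noise (chi-square per degree of freedom at least 28.9). Alternatives were the likelihood ratio test, DESeq2 1.42.0, another quasi-likelihood form, RLE scaling, no filter, at least 10 counts in every library, fits of only the groups compared, a replicate block and leaving out each library. Scaling by total counts without TMM was added after seeing the data.

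The 10 genes, the pathway list and the marker lists were chosen with earlier results of these data known. From each pathway subgroup the text names the gene of highest mean CPM and the called genes of highest and lowest log2 FC in KPC against no tumor, from marker lists the gene of highest mean CPM where a value is given, and for each member genes from its 3 nearest by RMS difference (mean log2 CPM of at least 1). Mcub was matched as Ccdc109b. The result of 1 marker list is not reported here.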

Additional observations from a re-analysis of the deposited data

Results flagged for a closer look

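In KPC muscle, Casq2 was at 3.16 CPM in replicate 1 and at 12.3 to 13.8 CPM in the other 3 mice, a gap of 0.864 of the group's range, above Dixon's 95% limit for 4 samples. It was the only sample so far from its group among 30 sets of 4 libraries checked (the CPM of the 10 genes and the log2 ratios in each tumor group), where chance flags about 1 in 20. Casq1 in the same library, at 388 CPM, lay within the range of the other KPC mice, and the slow-fiber marker sum was 84.5 CPM. The cause was not tested.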

How the results depend on the processing

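The lower calls of Casq1, Jph2 and Pvalb in KPC against no tumor kept their direction and both thresholds under every alternative run, with log2 FC from -3.74 to -3.26, -3.29 to -2.74 and -1.69 to -1.39. Of 200 member values checked in each comparison, 197, 191 and 188 kept direction and call in KPC against no tumor, KPC IL6KO against no tumor and KPC against KPC IL6KO. These include the run with no filter, which repeated the main fit because the filter removed no gene, so its values could not change. Members higher in KPC than in no tumor numbered 2 with DESeq2 (Atp2a2 added) and 1 to 2 when each library was left out (2 without KPC replicate 2), and those lower numbered 3 to 4 (3 without no tumor replicate 1). Members higher in KPC than in KPC IL6KO numbered 0 without TMM, 0 with only those groups fitted, and 0 to 1 with a library left out, where Sln was lost. Without TMM 1 pathway gene rose in KPC against no tumor. For KPC IL6KO against no tumor over all genes, the likelihood ratio test called 25 higher and 70 lower and DESeq2 30 and 66, with 0 to 2 lower when a library was left out (2 without KPC IL6KO replicate 1). The cause of these shifts was not tested.

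Directions changed only among values that were not called. Without TMM the log2 FC of KPC IL6KO against no tumor was -0.016 for Jph1, -0.055 for Jph2 and -0.0099 for Vdac1. For Atp2a2 in KPC against KPC IL6KO it was -0.091 without TMM and -0.0017 with only those groups fitted. With a library left out, KPC IL6KO against no tumor ranged from -0.0070 to 0.38 for Casq2, from -0.041 to 0.14 for Jph1, from -0.050 to 0.11 for Jph2, from -0.018 to 0.22 for Trdn, from -0.10 to 0.014 for Srl, from -0.073 to 0.030 for Stim1, from -0.14 to 0.068 for Slc8a3 and from -0.11 to 0.048 for Camk2a, and Atp2a2 in KPC against KPC IL6KO from -0.24 to 0.32. The log2 ratio of Atp2a1 to Atp2a2 in KPC against KPC IL6KO then ranged from -0.094 to 0.68, and in KPC IL6KO against no tumor Jph1 to Jph2 ranged from -0.033 to 0.14 and Sln to the pumps from -0.033 to 0.61.

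Replicate numbers pair the mice by number alone, with correlations of same-numbered deviations from -0.155 to 0.265. With the replicate block the members gave 1 higher and 4 lower, 0 and 0, and 1 and 4 in the order above, as without it. Under the block Jph2 was -0.065 and Asph 0.011 in KPC IL6KO against no tumor, Atp2a2 was -0.13 in KPC against KPC IL6KO, and the FDR of Atp2a1 in KPC against no tumor was 0.105. With 3 or 4 mice in a group, small differences in Atp2a2, Casq2 and Sln have wide intervals, and no ratio can pass 0.05 after adjustment.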
